A study of Mus musculus with 23 samples.

Results

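RNA of GFP+ cells sorted from uninjured retina was compared between CX3CR1-GFP mice that lack Spp1 (KO) and CX3CR1-GFP mice with intact Spp1 (WT), with 4 RNA-seq libraries in each group. These are 8 of the 23 libraries of the series, and the other 15 come from retinas after elevation of intraocular pressure (IOP) or after optic nerve crush (ONC). Spp1 KO is the global Spp1 tm1Blh allele, bred to homozygosity, and both groups carry the CX3CR1-GFP reporter, in which GFP is knocked into the Cx3cr1 locus. CX3CR1-GFP animals entered the cross as heterozygotes, each library comes from the pooled retinas of several mice, no injury was applied to either group, and age is not given for these libraries in the sources used here. The p-values below therefore measure the spread between pooled libraries. Of the 35825 genes in the deposited table, 15950 reached 10 normalized counts in 3 or more of the 8 libraries and were tested.

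Spp1 encodes osteopontin, a secreted, integrin- and CD44-binding glycoprotein that is made in the retina mainly by alpha retinal ganglion cells (αRGCs) and that microglia also express in disease-associated states. Microglia are the resident macrophages of the retina. In the uninjured tissue they sit in the plexiform layers and are recognised by P2ry12, Tmem119, Sall1 and Csf1r, whereas rods are the most numerous retinal neurons, and the pigment epithelium behind them recycles retinal through Rpe65 and Lrat. A sorted microglial sample can thus carry transcripts of its neighbours, and the genes are described here by the cell type that they mark.

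The targeted gene was examined first. Spp1 had 1228, 1518, 334 and 492 normalized counts in WT replicates 1 to 4 and 350, 53.1, 6.78 and 81.6 in KO replicates 1 to 4. The library labelled KO replicate 1 lay above WT replicate 3, so the groups overlapped, although the KO mean was 13.8% of the WT mean. The difference in mean log2 value gave p = 0.0571 (exact permutation test, two-sided, 4 against 4, for which 0.0286 is the smallest possible p). In the fit across all genes Spp1 was not called (log2 fold change -3.66 ± 1.58 SE, limma adjusted p = 0.253). The exons that the allele removes are not given in the sources used here, and the counts are per gene, so that reads of a remaining transcript would be included.

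The promoters of Gnat2, Rpe65 and Havcr2 are shown as examples from 3 groups of genes described below, and each holds a match in capitals. They are the 250 bases before the RefSeq start (GRCm38.p6, all on the plus strand). Gnat2, the cone transducin alpha subunit, rose in KO (chr3:108092816-108093065). Rpe65, the pigment epithelial isomerohydrolase, was highest in 3 of the 4 KO libraries (chr3:159598931-159599180). Havcr2, a microglial receptor for phosphatidylserine, was called lower in KO, with KO replicate 3 inside the WT range (chr11:46454681-46454930). The capitals mark TAATCC or its reverse complement GGATTA, the core recognised by the photoreceptor factor CRX, CATGTG or CACATG, an E-box of the kind bound by MITF, and GAGGAAGT, recognised by the myeloid factor PU.1.
Gnat2: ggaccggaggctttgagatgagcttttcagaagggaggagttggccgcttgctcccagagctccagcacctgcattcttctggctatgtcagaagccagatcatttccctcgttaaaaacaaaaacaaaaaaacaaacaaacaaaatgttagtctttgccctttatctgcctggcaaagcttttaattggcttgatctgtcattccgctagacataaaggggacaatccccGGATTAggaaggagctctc
Rpe65: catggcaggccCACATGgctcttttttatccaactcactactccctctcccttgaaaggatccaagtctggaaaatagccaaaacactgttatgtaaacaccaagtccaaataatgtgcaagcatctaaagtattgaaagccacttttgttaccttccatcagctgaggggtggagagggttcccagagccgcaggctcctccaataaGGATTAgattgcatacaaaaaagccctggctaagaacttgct
Havcr2: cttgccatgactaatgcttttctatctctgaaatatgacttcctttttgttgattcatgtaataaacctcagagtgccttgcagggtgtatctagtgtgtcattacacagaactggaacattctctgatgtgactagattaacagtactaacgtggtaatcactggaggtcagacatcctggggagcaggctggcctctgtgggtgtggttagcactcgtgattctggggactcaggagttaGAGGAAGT

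Both strands of the promoters were searched for each motif. TAATCC was present before 13 of 30 rod genes with a promoter in the table (43.3%), 3 of 12 cone genes, 5 of 23 bipolar genes (21.7%), 6 of 29 pigment epithelial genes (20.7%) and 1 of 34 homeostatic microglia genes (2.94%), against 764 of 11859 tested genes (6.44%). GAGGAAGT was present before 2 of 34 homeostatic microglia genes (5.88%) and 2.88% of all tested genes. CATGTG stood before 9 of 29 pigment epithelial genes (31.0%) and 9.62% of all, but also before 7 of the 34 homeostatic genes (20.6%) and 6 of the 30 rod genes (20.0%). No motif was marked before the cone genes Arr3 and Opn1sw, nor before Fcrls, Mertk, Sparc, Ctsl and Abca1, which were called lower. All of these are matches of letters in a window and not sites of binding.

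The libraries did not fall into 2 groups by genotype. KO replicate 3 correlated with the WT libraries at 0.912 to 0.923 (Pearson, log2 values over the 15950 genes) and with the other 3 KO libraries at only 0.855 to 0.887. KO replicates 1, 2 and 4 correlated with each other at 0.900 to 0.936, and the WT libraries with each other at 0.929 to 0.953. On the first principal component, which held 36.6% of the variance, KO replicates 1, 2 and 4 lay between 47.3 and 101, the WT libraries between -61.1 and -19.4, and KO replicate 3 at -81.3, beyond the WT libraries. KO replicate 3 had 27114209 reads on genes, in a range of 25042635 to 30296094 over the 8 libraries. It had the fewest genes above 0 (17177, against 18090 to 18875 in the other 7) and the largest share of counts in its 10 most abundant genes (10.7%, against 8.06 to 9.72%). The part of these differences in the results was not tested. Counts over lists are given below with and without this library, and the fold change without it stands beside the genes described in full.

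The homeostatic microglia list showed the split most plainly. Its genes held 9.94, 8.14, 9.15 and 9.03% of the normalized counts in the WT libraries, 3.64, 4.39 and 4.73% in KO replicates 1, 2 and 4, and 9.99% in KO replicate 3. The genes of rods moved the opposite way, with 2.20 to 2.70% in WT, 4.55, 4.97 and 5.34% in KO replicates 1, 2 and 4, and 1.68% in KO replicate 3, below every WT library. Pigment epithelial genes held 0.124 to 0.144% in WT, 0.793, 0.319 and 0.333% in KO replicates 1, 2 and 4, and 0.129% in KO replicate 3. For cone genes KO replicate 3, at 0.112%, lay above the WT libraries (0.0654 to 0.0765%) while below the other KO libraries (0.192 to 0.257%). In bulk libraries of this kind, fewer cells of a type and less RNA per cell cannot be told apart.

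**Figure D1:**
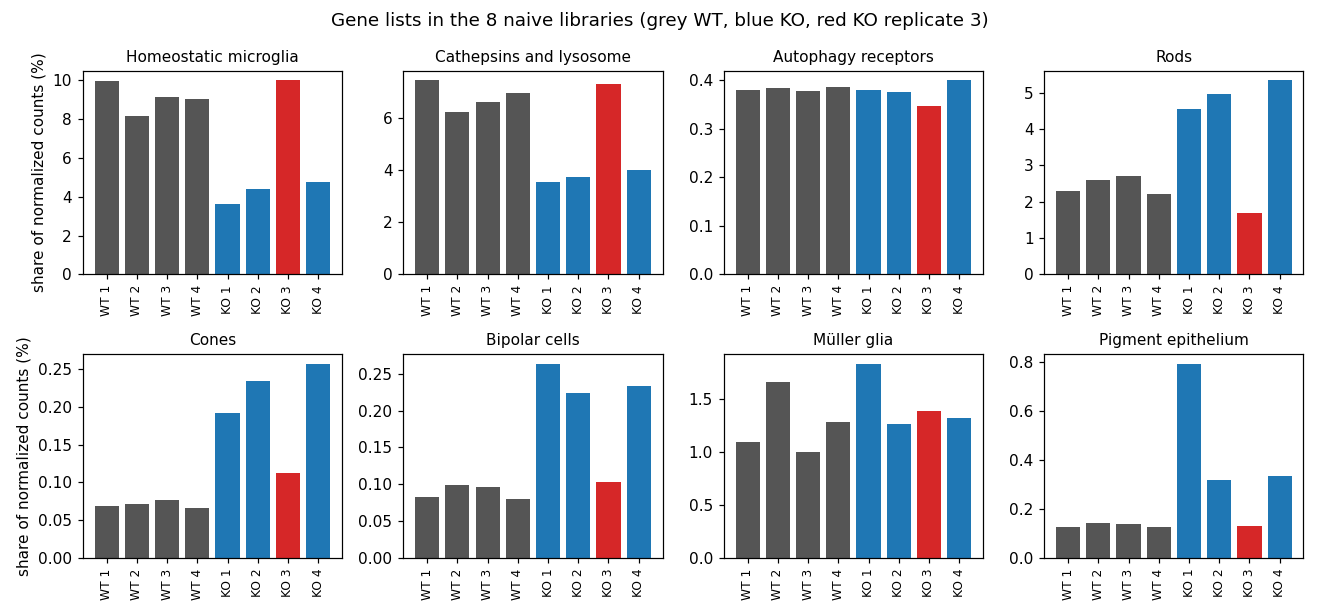
Share of all normalized counts (percent, bars from 0) held by each of 8 gene lists in the 4 WT libraries (grey), KO replicates 1, 2 and 4 (blue) and KO replicate 3 (red). The homeostatic microglia share of KO replicate 3 (9.99%) stands with WT and those of the other KO libraries lie between 3.64 and 4.73%, whereas the autophagy receptor bars are nearly level.

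With all 8 libraries, 70 genes were called (limma, Benjamini-Hochberg adjusted p under 0.05 with a log2 fold change beyond 0.58 in either direction). Of these, 12 were higher in KO (0.0752% of the genes tested) and 58 lower (0.364%), while 900 genes were higher and 1680 lower at an unadjusted p under 0.05. Without KO replicate 3 the same fit called 1624 genes, 371 higher (2.33%) and 1253 lower (7.86%), and all 70 were among them in the same direction. The 70 calls also depended on other single libraries: leaving out KO replicate 2 left 1 call, WT replicate 3 left 2, WT replicate 1 or KO replicate 4 left 4 each, WT replicate 4 left 11, KO replicate 1 left 22 and WT replicate 2 left 25. A fit of the 8 naïve libraries alone called 13 genes, 5 of them among the 70 in the same direction. Over all 8 libraries, the 4 KO values lay above the 4 WT values in 705 genes (4.42%) and below them in 885 (5.55%).

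All 12 genes called higher had KO values above every WT value, KO replicate 3 included. The largest rise was that of Hdc, histidine decarboxylase, the enzyme that makes histamine. It had 53.3, 30.2, 38.8 and 58.5 normalized counts in WT and 229, 404, 280 and 433 in KO, where replicate 3 lay among the other KO libraries (log2 fold change 2.87 ± 0.42 SE, limma adjusted p = 0.00610, and 2.94 without KO replicate 3). Sbspon, a secreted protein with somatomedin B and thrombospondin domains, went from 52.4, 100.5, 94.6 and 99.4 in WT to 548, 332, 471 and 380 in KO. KO replicate 3 again lay inside the range of the others (log2 2.33 ± 0.40 SE, adjusted p = 0.0127, and 2.28 without it). Ildr2, an immunoglobulin-like domain receptor, Scara3, a class A scavenger receptor, and Gzmm, a granzyme, rose by 2.33, 2.43 and 2.14 on the log2 scale. Gstt1, a glutathione transferase, rose by 1.49 and Fam193a by 1.07, and the remaining call outside the lists was a processed pseudogene, Gm47647, at 2.46. These 6 values without KO replicate 3 were 2.50 (Ildr2), 2.48 (Scara3), 2.27 (Gzmm), 1.57 (Gstt1), 1.22 (Fam193a) and 2.71 (Gm47647).

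The other 4 calls were members of the neuron lists. Arr3, cone arrestin, had 439 to 537 normalized counts in WT and 1652, 2422, 974 and 2420 in KO (log2 1.90 ± 0.37 SE, adjusted p = 0.0273). Gnat2, whose promoter is printed above, had 1088 to 1635 in WT and 3838, 4280, 2426 and 4951 in KO (log2 1.47, adjusted p = 0.0437). For both cone genes KO replicate 3 was the lowest KO library and still lay above all WT libraries. Kcng4, a potassium channel subunit that marks αRGCs, had 480, 628, 492 and 353 in WT and 1545, 1333, 908 and 1147 in KO (log2 1.34, adjusted p = 0.0273). Sncg, gamma-synuclein of retinal ganglion cells, had 198 to 284 in WT and 419, 729, 657 and 726 in KO (log2 1.47, adjusted p = 0.0328). The log2 fold changes without KO replicate 3 were 2.18 for Arr3, 1.68 for Gnat2, 1.48 for Kcng4 and 1.44 for Sncg.

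**Figure D2:**
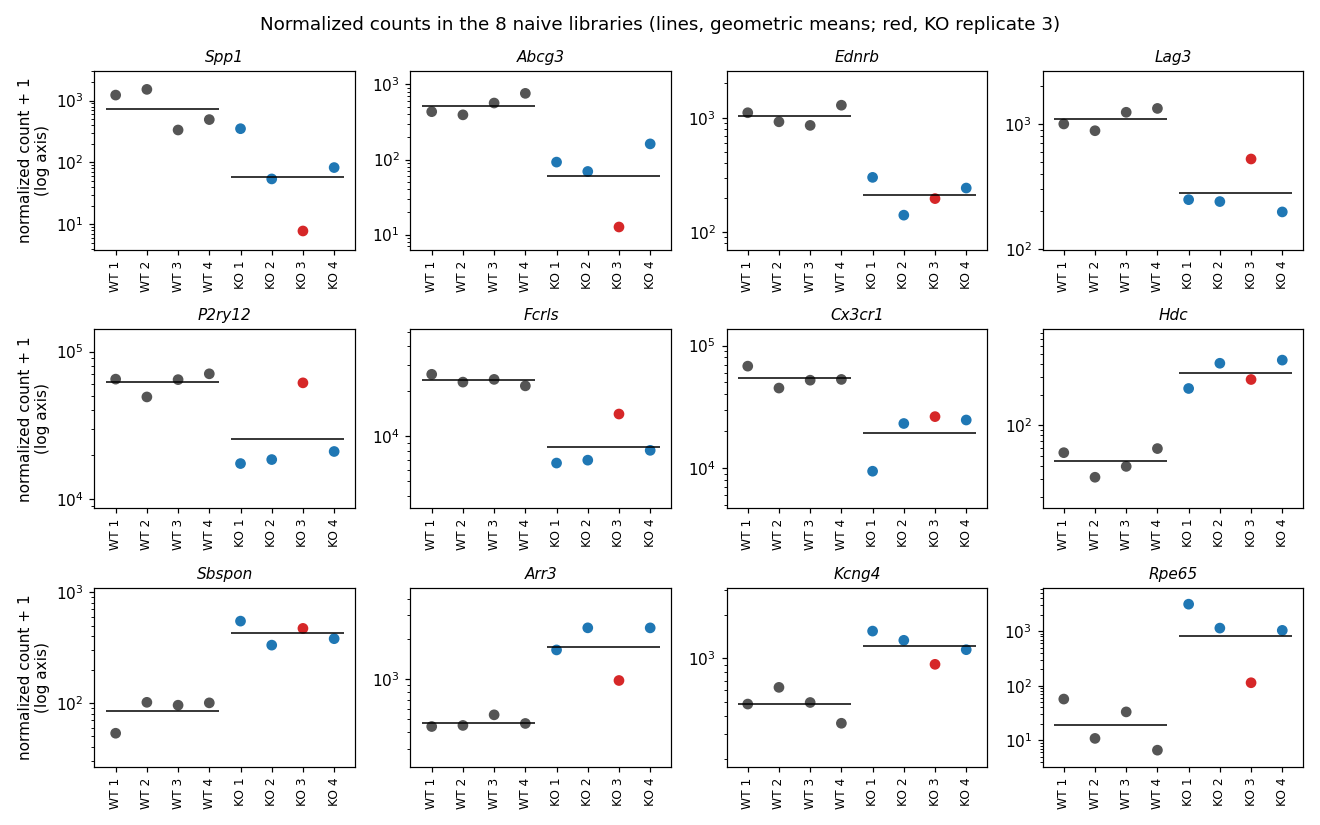
Normalized counts plus 1 (log axis) of 12 genes in each of the 8 naïve libraries, with WT in grey, KO in blue, KO replicate 3 in red and the geometric mean of each group as a line. KO replicate 3 sits with the other KO libraries for Ednrb, Hdc and Sbspon, with WT for P2ry12, and in between for Lag3, Fcrls, Arr3 and Rpe65.

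Across the retinal neuron lists the share of genes called depended on KO replicate 3. Of 44 rod genes tested, 0 were called with all libraries (limma, 11 at an unadjusted p under 0.05; median log2 fold change 0.49, beside 0.02 over all genes tested) and 14 rose without KO replicate 3 (median 0.87, beside 0.06). In that fit 2.33% of all genes tested rose. Gnat1, rod transducin, had 98293 to 112623 in WT, 215888, 185181 and 205091 in KO replicates 1, 2 and 4 and 86246 in KO replicate 3. It was called only in the fit without that library (log2 0.94, adjusted p = 0.0328). All 44 rod genes were lower in KO replicate 3 than in every other KO library, against 36.6% of all genes tested.

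Cone genes had the largest median among the neuron lists. Of 17 tested, 2 were called with all libraries (median log2 fold change 1.26) and 9 without KO replicate 3 (median 1.503), all of them higher. Over all genes tested, 0.0752 and 2.33% were called higher in these fits. In 11 of the 17 every KO value exceeded every WT value, as in 4.42% of all genes. Opn1sw, the short-wavelength opsin, had 4333 to 5909 in WT and 16444, 17539, 10590 and 19555 in KO, with no overlap (log2 1.56, adjusted p = 0.0921 with all libraries and 0.0264 without KO replicate 3). Among 30 bipolar cell genes 0 were called with all libraries (limma, 15 at an unadjusted p under 0.05, median 0.85) and 10 rose without KO replicate 3 (median 1.06). Pcp2 of ON bipolar cells had 736 to 1097 in WT and 2973, 3103, 1547 and 3380 in KO. Trpm1, their transduction channel, had 2100 to 3280 in WT and 17239, 7153, 3894 and 8311 in KO, and only the fit without KO replicate 3 called these bipolar genes (log2 1.80 and 1.90).

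Inner retinal genes gave few calls. The 28 amacrine genes gave 0 calls in either fit (limma, 2 at an unadjusted p under 0.05 in each; medians -0.18 and -0.07). Gad1, which makes GABA, was lower in all 4 KO libraries (11882 to 14252) than in WT (19056 to 20726), without being called (log2 -0.62, adjusted p = 0.318, and -0.60, adjusted p = 0.268 without KO replicate 3). Horizontal cell genes gave 0 of 9 calls in either fit, and 0 at an unadjusted p under 0.05. Of 27 retinal ganglion cell genes, Kcng4 and Sncg were called higher in both fits (medians 0.27 and 0.46), beside 0.0752 and 2.33% of all genes tested. The pan-ganglion cell gene Rbpms, with 46.5 to 82.7 in WT and 248, 157, 149 and 56.1 in KO, was not called.

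Müller glia, the radial glia of the retina, gave 0 calls of 38 genes with all libraries (limma, 18 at an unadjusted p under 0.05, median 0.68) and 9 rises without KO replicate 3 (median 0.85). In 18 of the 38 every KO value exceeded every WT value, as in 4.42% of all genes tested. Without KO replicate 3, 2.33% of all genes rose. Clu, the secreted chaperone clusterin, had 5230 to 6856 in WT and 42452, 16668, 9704 and 18676 in KO. Aqp4, the Müller end-foot water channel, had 732 to 1044 in WT and 3839, 1773, 1909 and 1939 in KO, and Glul, glutamine synthetase, had 14186 to 15525 in WT and 17891 to 20857 in KO. Clu and Aqp4 were called only without KO replicate 3 (log2 2.01 and 1.43), and Glul in neither fit (log2 0.38 in each). Gfap was not called either and was high in 1 KO library, with 1010 normalized counts in KO replicate 1 and 127 to 131 in the other 3.

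The largest rises without KO replicate 3 were in the pigment epithelium list. Of 44 genes tested 16 rose and 2 fell in that fit (median log2 fold change 3.17), while with all libraries 0 rose and 1, Mertk, fell (median 2.36). Over all genes tested, 2.33% rose and 7.86% fell without KO replicate 3. Rpe65 had 55.9, 9.81, 32.1 and 5.57 in WT, 3128, 1138 and 1034 in KO replicates 1, 2 and 4, and 112 in KO replicate 3. Ttr, the thyroxine and retinol carrier transthyretin, had 48.2 to 117 in WT, 7221, 2396 and 2782 in those KO libraries and 227 in KO replicate 3. For both, all KO libraries exceeded all WT libraries, and the calls were made only without replicate 3 (log2 6.34 and 5.51, adjusted p = 0.0361 and 0.00629). Rgr, the retinal G protein-coupled receptor shared by pigment epithelium and Müller glia, followed the same order, with 100 to 354 in WT and 27128, 9177, 463 and 9208 in KO. Mertk, the phagocytic receptor, is a microglial gene as well and is also listed there, and Slc16a3, the other gene that fell, is a lactate transporter.

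KO replicate 1 carried the most pigment epithelial signal of the 8 libraries and also the most mitochondrially encoded transcripts, 7.35% of counts against 5.07 to 5.44% in the other KO libraries and 3.74 to 4.87% in WT. Among 34 endothelial and pericyte genes 0 were called with all libraries (limma, 6 at an unadjusted p under 0.05). Without KO replicate 3, 1 rose, Vtn, and 1 fell, Eng, beside 2.33 and 7.86% of all genes tested. The shares of this list were 0.0471 to 0.0633% in WT, 0.191, 0.110 and 0.120% in KO replicates 1, 2 and 4, and 0.0498% in KO replicate 3. The part of these other cell types in the changes of microglial genes was not tested. When the pigment epithelium list mean entered the fit as a covariate 5 genes were called, and with the rod list mean 91. Both means come from the same libraries and differed between WT and KO replicates 1, 2 and 4. These fits therefore do not test that part.

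The microglial lists had negative medians. Of 47 homeostatic microglia genes tested, all 47 had a negative fold change, with a median of -0.92, and 3 were called with all libraries, Fcrls, Mertk and Sparc. Without KO replicate 3, 43 of the 47 fell (median -1.32), the exceptions being Bin1, Gpr84, Pmepa1 and Slc2a5. Of all genes tested 7.86% fell in that fit. P2ry12, the purinergic receptor by which homeostatic microglia are recognised, had 65095, 49335, 64603 and 70733 in WT and 17495, 18620, 61441 and 21110 in KO. Its value in KO replicate 3 lay inside the WT range, and it was called only without that library (log2 -1.70 against -1.28 with it, adjusted p = 7.9e-05 and 0.0539). Fcrls, an Fc receptor-like gene of microglia, had 21779 to 26016 in WT and 6638, 6940, 14118 and 8072 in KO, so that KO replicate 3 was the highest KO library but stayed below WT (log2 -1.48 ± 0.25 SE, adjusted p = 0.0127, and -1.72 without it). In all 47 genes KO replicate 3 exceeded every other KO library, as it did in 32.4% of all genes tested.

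The transcription factors and TGF-beta pathway genes of microglial identity had a median nearer 0. Of 29 tested 0 were called with all libraries (limma, 10 at an unadjusted p under 0.05, median -0.39), and 10 fell and 1, Itgb8, rose without KO replicate 3 (median -0.65). Sall1, the identity factor of microglia, had 3016 to 3792 in WT, 1526, 1853 and 2104 in KO replicates 1, 2 and 4 and 4308 in KO replicate 3 (log2 -0.59, adjusted p = 0.228, and -0.90, adjusted p = 0.00444 without the last). Among 35 genes of disease-associated microglia, a state with raised phagocytic and lipid genes, only Ctsl was called with all libraries and 15 fell without KO replicate 3. Of all genes tested 7.86% fell without that library. Apoe, a lipid carrier that Müller glia also make, was called in neither, with 177050 to 305618 in WT and 139615 to 262251 in KO.

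Lysosomal and phagocytic genes had the same direction as the homeostatic list. Of 67 cathepsin and lysosome genes Ctsl alone was called with all libraries and 32 fell without KO replicate 3 (median -0.43 and -0.58). In the latter fit 7.86% of all genes tested fell. Ctsl, cathepsin L, had 18980 to 21987 in WT and 7940, 6627, 14868 and 7810 in KO (log2 -1.20, adjusted p = 0.0150, and -1.45 without KO replicate 3). Of 50 phagocytosis and efferocytosis genes Havcr2, Mertk and Abca1 fell with all libraries, and 27 fell without KO replicate 3. In KO replicate 3 Havcr2 (6621) and Mertk (7376) lay inside their WT ranges of 5059 to 6995 and 6144 to 8507, against 1723 to 1990 and 2113 to 2872 in the other KO libraries (log2 -1.29 and -1.28 with all libraries, and -1.75 and -1.69 without KO replicate 3). Mfge8 was the 1 gene of that list to rise, a bridging protein for apoptotic cells that had 4304 to 4782 in WT and 12243, 9442, 5452 and 10092 in KO (log2 1.21 without KO replicate 3). Of 47 cytokine, chemokine and NF-kB genes 0 were called with all libraries (limma, 19 at an unadjusted p under 0.05) and 22 fell without KO replicate 3.

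Autophagy lists had medians nearer 0. Among 28 selective autophagy receptors 0 were called with all libraries (limma, 6 at an unadjusted p under 0.05, median -0.16). Without KO replicate 3, 3 of the 28 fell, beside 7.86% of all genes tested. They were Ncoa4, which delivers ferritin, Retreg1, which delivers endoplasmic reticulum, and Trim5. The list held 0.378 to 0.386% of counts in WT and 0.347 to 0.400% in KO. Wdfy3, which links aggregates to the autophagosome, had 2425 to 2550 in WT and 2417, 2993, 1830 and 4778 in KO, and Optn, optineurin, had 282 to 1089 in WT and 2748, 2096, 461 and 513 in KO. Htt, huntingtin, was higher in every KO library (639 to 1291) than in WT (355 to 525) without being called (log2 0.93, adjusted p = 0.176, and 1.07, adjusted p = 0.0708 without KO replicate 3). Ubqln2 had 109 to 235 in WT and 238, 333, 159 and 364 in KO. Of 46 core macroautophagy genes 0 were called with all libraries (limma, 10 at an unadjusted p under 0.05). Without KO replicate 3, 6 of the 46 fell, again beside 7.86% of all genes. Among the 6 was Becn1, the class III kinase subunit beclin 1 (log2 -0.73).

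Receptors for SPP1 gave 0 calls of 10 genes with all libraries (limma, 2 at an unadjusted p under 0.05). Without KO replicate 3, 2 fell and 1 rose, beside 7.86 and 2.33% of all genes tested. Itgb3, the integrin beta 3 subunit, had 1621 to 2402 in WT, 641, 644 and 535 in KO replicates 1, 2 and 4 and 2863 in KO replicate 3, and fell without the last (log2 -1.77, adjusted p = 0.00155). Itgb5 fell too (log2 -0.77), and Itgb8, also listed with the pigment epithelium, rose from 97.6 to 190 in WT to 3035, 883 and 1135 in KO replicates 1, 2 and 4, with 143 in KO replicate 3. Itgav, the partner of these subunits, had 895 to 1360 in WT and 1954, 864, 1928 and 1195 in KO, and Cd44 had 780 to 995 in WT and 992, 493, 1356 and 446 in KO. Neither was called, nor was Itgb1.

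**Figure D3:**
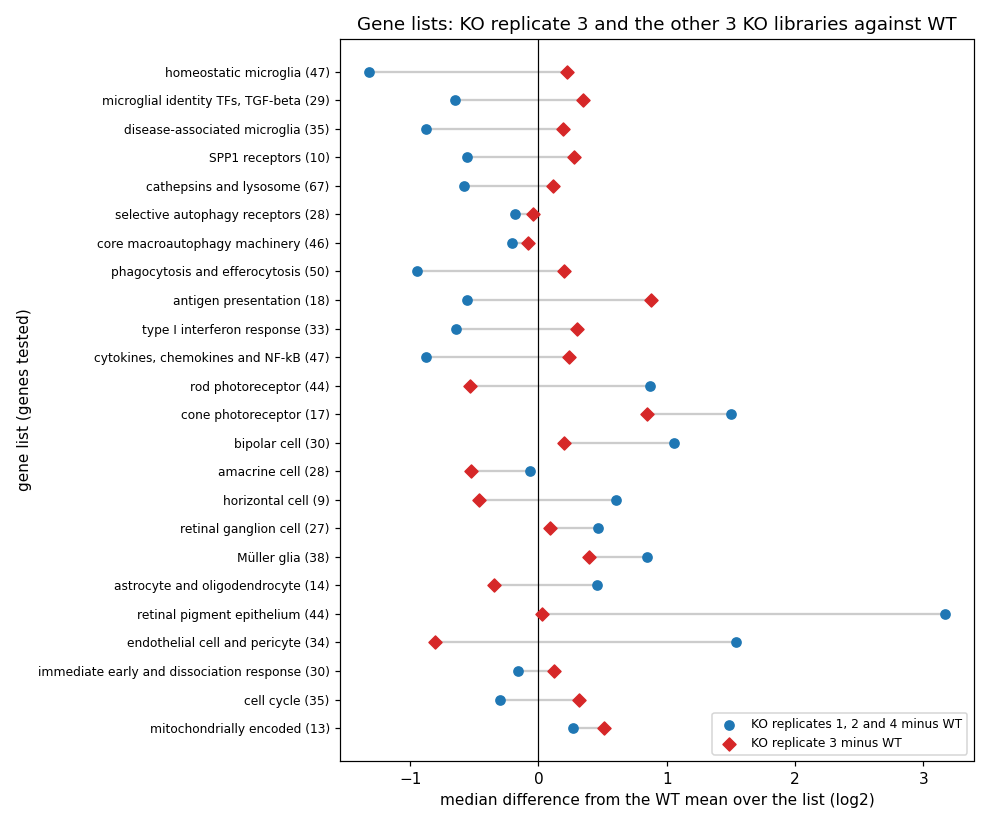
Median difference from the WT mean (log2) over the tested genes of 24 lists, for the mean of KO replicates 1, 2 and 4 (blue circles) and for KO replicate 3 (red diamonds), with the number of genes in brackets. For homeostatic microglia the values are -1.32 and 0.22 and for pigment epithelium 3.17 and 0.02, while for cones both are positive, at 1.503 and 0.85.

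Because the microglial share of counts differed between libraries, the values were also rescaled so that the homeostatic microglia list had the same median in every library. This moves the log2 fold changes of all genes up by nearly the same amount, taking their median from 0.02 to 1.07, and 7655 genes were called higher (48.0%) and 22 lower (0.138%), in place of 12 and 58. The scaling sets the median of the 47 homeostatic genes, so their counts after it, 0 lower and 3 higher, are no test of that list. Of the 58 genes called lower, 43 still had a negative log2 fold change, 11 with an adjusted p under 0.05, and 8 were still called: Abcg3, Ccdc152, F9, Lag3, Cd101, Arhgap11a, H2-Oa and Slc40a1. Ednrb and Cfb were at -1.22 and -1.12 and did not pass (adjusted p = 0.0927 and 0.0784). Lag3, a receptor for MHC class II, had 1000, 882, 1240 and 1331 in WT and 247, 239, 524 and 197 in KO (log2 -1.97 ± 0.27 SE, adjusted p = 0.00500, and -0.91, adjusted p = 0.0214 after rescaling, and -2.27 without KO replicate 3). Slc40a1, the iron exporter ferroportin, had 5204 to 8470 in WT and 1757, 1716, 4327 and 1476 in KO (log2 -1.67, -0.60 after rescaling, and -2.01 without KO replicate 3). H2-Oa, a chaperone subunit of MHC class II loading, had 721 to 1022 in WT and 209, 224, 469 and 173 in KO, and the clotting protease F9 had 263 to 389 in WT and 76.7, 81.2, 175 and 44.2 in KO.

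Of the 58 genes called lower, 50 are in no list, and in 50 every KO value lay below every WT value. The largest fall was that of Abcg3, an ABC transporter gene on the same chromosome as Spp1. It had 433, 393, 565 and 761 in WT and 91.4, 68.4, 11.6 and 161 in KO (log2 -3.12 ± 0.61 SE, adjusted p = 0.0273), and KO replicate 3 was the lowest library. Without it the log2 fold change was -2.36 (adjusted p = 0.00462). Ednrb, the endothelin B receptor, had 1106, 922, 857 and 1287 in WT and 300, 140, 196 and 242 in KO (log2 -2.28 ± 0.43 SE, adjusted p = 0.0215, and -2.24 without KO replicate 3), with KO replicate 3 inside the range of the other KO libraries. Cfb, complement factor B, had 131 to 442 in WT and 102, 33.8, 75.6 and 42.5 in KO (log2 -2.17). Bmf and Pmaip1, both BH3-only promoters of apoptosis, fell by 1.79 and 1.71 on the log2 scale, and Cd101 by 1.88. Serpine2, a serine protease inhibitor, had 18364 to 25926 in WT and 6707, 7064, 13420 and 7249 in KO, and Jak3, Arhgap30 and Tnfrsf13b, a kinase, a GTPase-activating protein and a receptor of the TNF family, fell by 1.47, 1.47 and 1.46. With KO replicate 3 left out the log2 fold changes were -2.29 for Cfb, -2.16 for Bmf, -2.33 for Cd101, -1.71 for Serpine2, -1.77 for Jak3, -1.79 for Arhgap30 and -1.87 for Tnfrsf13b.

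Other lists with calls were few. Mag, a myelin gene in the astrocyte and oligodendrocyte list and a sialic acid-binding lectin, had 503 to 744 in WT and 154, 197, 342 and 249 in KO (log2 -1.44, adjusted p = 0.0127, and -1.64 without KO replicate 3). Cd86, a co-stimulatory ligand of antigen-presenting cells, had 6209 to 8086 in WT and 2588, 2459, 6110 and 2615 in KO (log2 -1.16, adjusted p = 0.0328, and -1.48 without KO replicate 3), the 1 call among 18 antigen presentation genes. Without KO replicate 3, 5 of the 18 fell, beside 7.86% of all genes tested. KO replicate 3 lay above every other KO library in all 18, as in all 47 homeostatic genes and in 32.4% of all genes tested. H2-K1, a classical MHC class I gene, had 8540 to 10732 in WT, 5432, 5976 and 5685 in KO replicates 1, 2 and 4, and 14970 in KO replicate 3, the highest of the 8. The type I interferon, border macrophage, monocyte and neutrophil, lymphocyte, immediate early and cell cycle lists gave 0 calls of 33, 20, 17, 12, 30 and 35 genes with all libraries (limma, 3, 3, 4, 4, 7 and 5 at an unadjusted p under 0.05). Without KO replicate 3 they gave 4, 1, 1, 2, 3 and 3 falls, beside 7.86% of all genes tested.

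KO replicate 3 could be set against calls that did not use it. For each of the 1624 genes called without this library, its position was expressed as 0 at the WT mean and 1 at the mean of the other KO libraries, on the log2 scale. The WT mean enters both differences, so the position is a description. Its median was -0.01 over the 1624 genes (quartiles -0.21 and 0.23), and 708 of them (43.6%) lay inside the WT range. By direction, the median was 0.18 for the 371 genes that rose and -0.05 for the 1253 that fell. The lists differed: the median was -0.16 for the 43 homeostatic genes, -0.28 for the 14 rod genes, 0.04 for the 18 pigment epithelium genes, 0.30 for the 10 bipolar genes, 0.50 for the 9 cone genes and 0.64 for the 9 Müller glia genes. KO replicate 3 reached the range of the other KO libraries in 77 genes (4.74%), 5 of them Müller glia genes and 0 of them from the homeostatic, rod or cone lists.

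**Figure D4:**
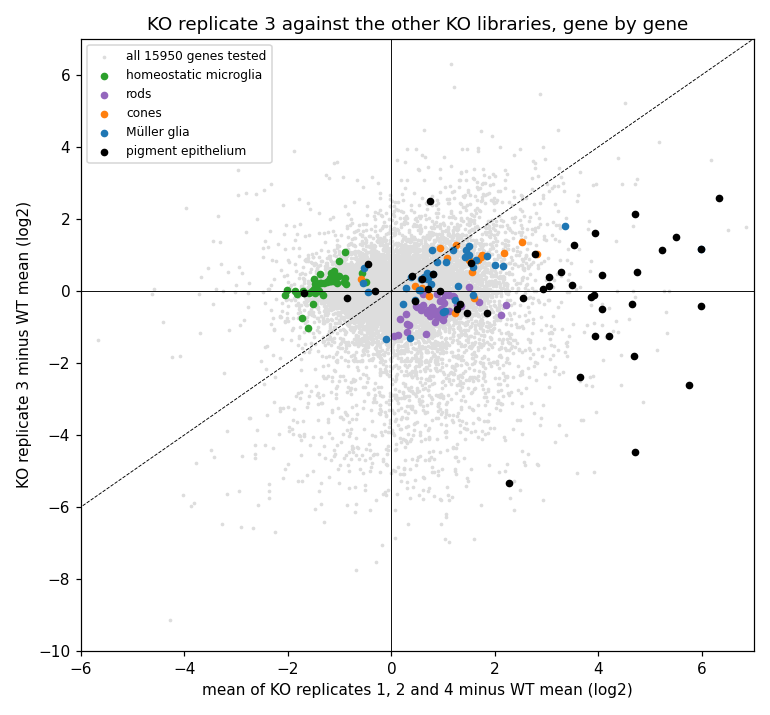
Difference from the WT mean (log2) of KO replicate 3 (vertical axis) against that of the mean of KO replicates 1, 2 and 4 (horizontal axis) for all 15950 tested genes (grey) and 5 lists in colour; both axes use the same WT libraries and the dashed line marks equality. Homeostatic microglia genes lie left of 0 near a height of 0, rods lie right of 0 and mostly below it, and most cone genes lie in the upper right.

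The genes in which KO replicate 3 stood farthest from the other KO libraries, were chosen for that gap and are given with no test. Above the others were the lens crystallins Cryaa, Crybb2 and Cryba1, followed by Gbgt1, Cenpf, Dusp27, Kcnj2, Ccnb1, Tlr8 and Cd22. Cryaa had 1532 normalized counts there and 22.9, 12.1 and 22.1 in KO replicates 1, 2 and 4. WT replicate 2 held 1144 as well, with 194 or less in the other WT libraries. Below the others were 10 genes that were at or near 0 in KO replicate 3. Lrat and Oca2, of the pigment epithelium, had 0 there, which allows 2.91 normalized counts (3 reads, counting error only), and 1301, 389 and 381, and 846, 170 and 247, in KO replicates 1, 2 and 4. Col1a2, Col4a6, Cltrn, Bace2, Pld5, Zfp185 and Gprc5c were at 0 too, and the Y-linked Eif2s3y at 1.94.

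The 4 Y-linked genes gave 0 calls in either fit (limma, 0 and 1 at an unadjusted p under 0.05). Ddx3y, a Y-linked helicase, had 2623, 556, 0 and 805 in WT and 1713, 1302, 28.1 and 1582 in KO, so that WT replicate 3 and KO replicate 3 had the least. WT replicate 3 held 9.15% of its counts in homeostatic and 2.70% in rod genes, and the part of sex in the pattern of KO replicate 3 was not tested.

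Cx3cr1, the locus of the reporter, had 67878, 44957, 52121 and 52866 normalized counts in WT and 9417, 23090, 26283 and 24661 in KO. The groups did not overlap (p = 0.0286, exact permutation test, two-sided, the smallest possible p), although the gene narrowly missed being called in the fit (log2 -1.47, limma adjusted p = 0.0539). Relative to Csf1r, the CSF1 receptor gene of the same cells, Cx3cr1 stood at 17.6 to 21.1% in the WT libraries and at 22.1 and 20.0% in KO replicates 2 and 4. In KO replicates 1 and 3 the ratio was 9.37 and 8.02%. KO replicate 3 thus had WT-like counts of Csf1r (327832, against 232785 to 321788 in WT) with fewer of Cx3cr1. After IOP elevation the ratio was 18.8 to 19.6% in WT and 0.293 to 0.444% in KO. After ONC it was 15.3, 15.4 and 8.29% in WT and 12.5, 8.98, 3.62 and 8.03% in KO, so that a ratio close to those of naïve KO replicates 1 and 3 was also found in a WT library. The number of GFP alleles in each pool is not given in the sources used here.

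Genes near the modified loci were examined as well. Within 10 Mb of Spp1 (chr5:104435118-104441050, GRCm38) 2 of 148 tested genes were called, Abcg3 (chr5:104935057-104982718) and Anxa3, a phospholipid-binding annexin with 8950 to 10939 normalized counts in WT and 3053, 3045, 7651 and 3441 in KO. These are 1.35% of the neighbours, and both were lower in KO. Over all genes tested, 0.364% were called lower and 0.0752% higher in that fit. Without KO replicate 3, 19 of the 148 were called (12.8%), 4 higher and 15 lower, beside 10.2% of all genes tested in that fit. Around Cx3cr1 (chr9:119901616-120069879) 0 of 125 genes were called with all libraries by limma, and 7 fell without KO replicate 3 (5.6%), beside 7.86% of all genes.

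KO and WT, by label, were also compared after injury, in libraries that the naïve contrast did not use. Relative to Csf1r, Cx3cr1 stood at 0.293 to 0.444% in KO after IOP elevation and at 8.02 to 22.1% in naïve KO. The part of this difference in the counts below was not tested. KO against WT gave 67 genes higher (0.42%) and 232 lower (1.45%) after IOP elevation and 11 higher (0.069%) and 2 lower (0.0125%) after ONC, over the same 15950 genes. Of the 70 genes called in naïve retina 9 were called after IOP elevation, all 9 in the opposite direction, which is 12.9% of the first list and 3.01% of the second. Gstt1, Sncg, Fam193a, Ildr2 and Gm47647 were higher in naïve KO and lower in KO after IOP elevation, and Lag3, Jak3, Slc36a4 and Nectin2 the reverse. Of the 70, 62 had fold changes of opposite sign in the 2 comparisons, with a median log2 fold change after IOP elevation of -1.12 for the 12 and 0.45 for the 58. The list medians changed sign too for homeostatic microglia (-0.92 naïve, 0.54 after IOP elevation) and rods (0.49 and -0.73). For cones the median stayed positive (1.26 and 0.20). The part of these list differences in the opposite signs was not tested. Tested directly, the difference between the naïve and IOP effects was called for 64 of the 70 and 9.19% of all genes (limma interaction term), in a test that shares the naïve libraries by which the 70 were chosen. The difference between the naïve and ONC effects was called for 5 of the 70 and 0.069% of all genes. After ONC 0 of the 70 were called (limma), and 29 had the sign of the naïve comparison. With the 1624 genes called without KO replicate 3, 48 were called after IOP elevation, 3 of them in the same direction, and 0 after ONC. Hdc had a log2 fold change of -1.57 after IOP elevation and -0.02 after ONC, and Abcg3 0.55 and -0.92.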

How the data were processed

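RNA of sorted GFP+ retinal cells was sequenced by the authors as paired-end 150-bp reads and, per the study's methods, quantified with salmon against GRCm38, and the submitters' processing notes also name STAR and DESeq2. The deposited signal values are normalized counts, read counts per gene divided by a size factor of each library. In all 8 naïve libraries whole reads were recovered for 100.0% of the values checked (tolerance 0.01 reads), 16325 to 18074 per library. The check left out genes at 0 and the most abundant genes. The upper limit for a gene at 0, taken as 3 reads, was 2.41 to 2.91 normalized counts (counting error only). Groups came from the labels. No library duplicated another (0 identical pairs).

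The log2 of each value plus 1 entered limma 3.58.1 (R 4.3.3; lmFit and eBayes with a trend), in a fit of all 23 libraries in 6 groups with 0 covariates, so that the spread is shared. A fold change on this scale understates the change of low genes. The procedure was tested on simulated data. The members and the 30 gene lists were chosen with earlier results of these data known, and some genes stand in more than 1 list. Genes were named by rule: the 15 largest rises and falls among called genes with groups that did not overlap and a mean of at least 100, without predicted genes and pseudogenes, the called members of lists (at most 8 each), a fixed set of markers and receptors (some of which are not reported here), called genes within 10 Mb of Spp1 or Cx3cr1, and the 10 genes in each direction with the largest gap between KO replicate 3 and the other KO libraries. Other list members, Gm47647 and Ddx3y among them, were chosen after their values were seen. Positions are those of GENCODE M21, which held 35436 of the 35825 genes, and promoters those of RefSeq. Alternatives used edgeR 4.0.16 and DESeq2 1.42.0 on recovered reads, other filters, pseudocounts and scalings, covariates, the replicate block and leaving out each library. Plots were drawn with matplotlib 3.10.9 under Python 3.11.15.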

Additional observations from a re-analysis of the deposited data

Results flagged for a closer look

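In 27 of 188 groups of 4 values examined, the library farthest from the others stood apart by Dixon's criterion, and chance gives about 1 in 20 for independent groups. These groups are not independent, as lists share genes with each other and with the named genes. Some of the named genes were also chosen by these values, so the 2 rates cannot be compared. In 19 of the 27 the library set apart was KO replicate 3. Its share of counts was high for the microglial identity list (0.662% against 0.316 to 0.345% in the other KO libraries), disease-associated microglia (4.35% against 2.36 to 2.48%), cathepsins and lysosome (7.31% against 3.56 to 4.02%), monocytes and neutrophils (0.240% against 0.128 to 0.138%) and lymphocytes (0.0577% against 0.0251 to 0.0296%), and low for horizontal cells (0.00575% against 0.0176 to 0.0194%). Its normalized counts were high for P2ry12 (61441), Havcr2 (6621), Itgb3 (2863), Cd86 (6110), Anxa3 (7651), Arhgap30 (3018), Pmaip1 (247), Serpine2 (13420), Slc40a1 (4327), Tnfrsf13b (2852) and Cryaa (1532), and low for Gnat1 (86246) and Pcp2 (1547).

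KO replicate 1 stood apart for mitochondrially encoded genes (7.35% against 5.07 to 5.44%), Cx3cr1 (9417 normalized counts against 23090 to 26283), Gfap (1010 against 127 to 131), Gstt1 (665 against 391 to 416) and Pecam1 (636 against 231 to 275). Among the WT libraries, replicate 3 was low for disease-associated microglia (3.32% against 3.87 to 3.96%), replicate 2 was high for lens genes (0.0308% against 0.0183 to 0.0197%) and replicate 1 was low for Sbspon (52.4 against 94.6 to 100.5).

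The effect of genotype differed between naïve retina and IOP elevation for 64 of the 70 naïve calls, and between naïve retina and ONC for 5 of them (limma, interaction term, Benjamini-Hochberg adjusted p under 0.05 and absolute log2 difference over 0.58). Over all 15950 genes the same terms were called for 1466 (9.19%) and 11 (0.069%). These terms share the naïve libraries by which the 70 genes were chosen. The medians of the homeostatic microglia and rod lists also changed sign after IOP elevation, and the part of this in the interaction was not tested.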

How the results depend on the processing

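The 70 calls (12 higher, 58 lower) became 131 (26, 105) with a mean of at least 50, 458 (115, 343) with quantile normalization, 7677 (7655, 22) with rescaling to the homeostatic microglia list, 149 (28, 121) with a replicate block, 13 (6, 7) with the 8 naïve libraries alone, 91 (12, 79) with the rod and 5 (1, 4) with the pigment epithelium covariate, 9 (5, 4) with edgeR and 977 (651, 326) with DESeq2. At a pseudocount of 5 there were 19 higher, and 83 in all. Of the 70, 5 were called in the same direction with the 8 naïve libraries alone, 4 with edgeR and 4 with the pigment epithelium covariate. With rescaling 20 of them were, with the rod covariate 55, with DESeq2 62, with quantile normalization 68 and with the replicate block 70. Leaving out 1 library gave 1 to 1624 calls (0 to 371 higher, 1 to 1253 lower). The 0 higher came without KO replicate 2 in limma, with 556 higher at an unadjusted p under 0.05. The 1624 calls without KO replicate 3 became 2855 in the 7 naïve libraries alone, 2884 with edgeR, 3793 with DESeq2 and 11888 with rescaling, alternatives chosen after seeing the data. Of naïve calls, 9 were called after IOP elevation and 48 when made without KO replicate 3. The log2 difference of Spp1 ranged from -4.51 to -2.68 and that of Cx3cr1 from -1.62 to -1.13 over the libraries left out, with exact permutation p of 0.0286 to 0.0857 and of 0.0286.

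Same-numbered WT and KO libraries did not deviate together (r = -0.30 to 0.02), and 0 of 8 libraries correlated best with their own number, so the replicate numbers do not pair the samples.

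Rescaling to the homeostatic list moves all genes up by nearly the same amount (median from 0.02 to 1.07), so that small negative values turn positive by construction. This applied to Apoe (0.70), Cd44 (0.82), Csf1r (0.092), Gad1 (0.44), Gfap (0.98), Itgb1 (0.64), Itgb5 (0.59), Pecam1 (0.72), Sall1 (0.47), Tmem119 (0.37) and Trem2 (0.25). With the rod and pigment epithelium covariates Cd44 was at 0.021 and 0.14 and Wdfy3 at -0.067 and -0.034, and Cryaa was at 0.37 with the latter. Cryaa and Gfap were at 0.15 and 0.38 with edgeR and 0.18 and 0.38 with DESeq2. Over the libraries left out Gfap ranged from -0.81 to 0.39 and was positive without WT replicate 4 (0.39) and without KO replicates 2, 3 and 4 (0.18, 0.17 and 0.17). Cd44 ranged from -0.53 to 0.0027, Itgb1 from -0.74 to 0.043 and Wdfy3 from -0.078 to 0.38, each reversed without KO replicate 4. The cause was not tested. Of the other values for 64 named genes under single alternatives, 1021 kept their call and direction, 310 lost the call and 50 gained it.

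With 4 libraries per group, 1 of them unlike the others, every count above is uncertain, and shares of counts are relative, so that a rise of one list lowers others.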
